A study of Mus musculus with 8 samples.

Results

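Glucose use and the response to low oxygen were followed through 36 genes in cultured mouse pancreatic cancer cells that had been exposed to extracellular vesicles (EVs), small membrane particles that cells release. The genes encode the enzymes of glycolysis, the transporters that bring glucose in and carry lactate out, and well-known transcriptional targets of the hypoxia-inducible factors (HIFs), together with HIF-1 alpha itself and 2 of its oxygen sensors. They were listed by symbol, with earlier results of these data known, and each symbol was kept if its row held at least 10 counts summed over the 8 libraries. All 36 of the 36 symbols met that rule, out of 42687 genes in the table, and all 36 also passed the filter on low counts that left 15197 genes for testing. By role they were 3 glucose and lactate transporters, 9 enzymes of upper glycolysis, 7 of lower glycolysis, 3 glycolytic regulators, 3 genes for HIF-1 alpha and prolyl hydroxylases, and 11 other hypoxia targets.

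The cells were 1 clone with poor immunogenicity from KPCY mice, which carry Pdx1-Cre together with Cre-dependent alleles that include Trp53LSL-R172H/+ and the reporter Rosa26YFP/YFP, so every group shares these alleles and rests on a single clone. The sample records enter the genotype of every library as WT. There were 4 groups of 2 libraries. Controls received PBS. A second group received ATEVs at 15 µg/mL, and the third group received NTEVs, which are EVs of non-activated T cells, at 30 µg/mL, doses given as equal in EV-DNA at 5 µg/mL but unequal in EV amount. The last group, called DNase-ATEV here, received 15 µg/mL of ATEVs that had first been treated with Baseline-ZERO DNase. Cells were harvested, reseeded and exposed again through 8 rounds before RNA was taken. The comparisons ask what each EV preparation did to the cells and whether the DNA of ATEVs mattered to it.

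Glycolysis turns glucose into pyruvate in a chain of enzymes, and lactate dehydrogenase and a lactate exporter let the chain run when pyruvate is not burned in mitochondria. HIF-1 is a pair of proteins whose alpha subunit is made constantly and destroyed in the presence of oxygen, because prolyl hydroxylases mark it for the VHL ubiquitin ligase; when oxygen is short the protein persists and binds a short core motif near genes of glycolysis, angiogenesis, pH control and mitophagy. Its regulation is therefore mostly at the level of the protein, which RNA sequencing does not measure. Pancreatic cancers are known for high glycolytic gene expression and for poorly perfused, hypoxic tumours.

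The promoters of 4 of the genes are shown as examples. Ankrd37 and Bnip3 had some of the widest differences between libraries. Pdk1 had a narrower one, with library 2 at 1.96-fold to 2.23-fold of library 1 in the EV groups. Hk2 was the sole gene of the 36 to pass the edgeR test after adjustment. Each line holds the 250 bases before the annotated start on the gene's own strand, from RefSeq on GRCm38.p6, at chr8:45999851-46000100 (minus strand), chr7:138909507-138909756 (minus), chr2:71872974-71873223 (plus) and chr6:82774455-82774704 (minus). Capitals mark the core of the HIF binding motif, ACGTG or GCGTG, and its reverse complements CACGT and CACGC.
Ankrd37: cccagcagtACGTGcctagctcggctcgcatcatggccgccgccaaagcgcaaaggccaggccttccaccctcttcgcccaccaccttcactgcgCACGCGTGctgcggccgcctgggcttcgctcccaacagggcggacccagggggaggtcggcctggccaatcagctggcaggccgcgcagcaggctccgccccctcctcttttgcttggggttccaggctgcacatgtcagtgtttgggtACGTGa
Bnip3: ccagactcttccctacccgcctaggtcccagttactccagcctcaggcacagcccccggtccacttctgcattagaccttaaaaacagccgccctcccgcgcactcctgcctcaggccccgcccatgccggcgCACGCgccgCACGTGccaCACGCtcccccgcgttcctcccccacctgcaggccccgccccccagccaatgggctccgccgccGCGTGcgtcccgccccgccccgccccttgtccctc
Pdk1: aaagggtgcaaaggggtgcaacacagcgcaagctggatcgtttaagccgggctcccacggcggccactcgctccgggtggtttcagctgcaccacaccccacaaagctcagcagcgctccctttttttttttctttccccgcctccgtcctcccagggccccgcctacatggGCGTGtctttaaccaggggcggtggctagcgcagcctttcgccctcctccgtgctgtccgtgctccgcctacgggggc
Hk2: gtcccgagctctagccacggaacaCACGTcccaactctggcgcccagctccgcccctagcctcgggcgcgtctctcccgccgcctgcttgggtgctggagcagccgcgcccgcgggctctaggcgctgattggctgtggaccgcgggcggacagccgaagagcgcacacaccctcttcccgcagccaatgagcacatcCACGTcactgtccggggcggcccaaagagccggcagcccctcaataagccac
The Bnip3 window held 5 such cores, with ACGTG and CACGT overlapping in the palindrome CACGTG, and the Ankrd37 window held 4, of which CACGC and GCGTG overlap in CACGCGTG. Hk2 had 2 and Pdk1 had 1 in the window shown, which is 1 of 2 windows given for that gene. RefSeq promoter entries matched 33 of the 36 genes, and 30 of those 33 had at least 1 core in at least 1 window; by window the share was 38 of 47, or 80.9%, against 38.6% of all 32851 windows of this length. Gpi1, Tpi1 and Eno2 had none of these letters in their windows. A match is a description of letters and not a measured binding site. The genes were listed in part as known HIF targets, and every core contains the pair CG. All windows served as background without matching for base composition, so the shares are no test of control by HIF.

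Libraries held 34385326 to 52451398 counts, and 19425 to 20491 genes were detected in each. Levels are given as counts-per-million (CPM) after scaling with the trimmed mean of M-values (TMM), with library 1 before library 2 throughout. The 10 epithelial markers summed to between 8849.8 and 11816 CPM, led by the keratins Krt8, Krt18, Krt19 and Krt7. Others of that list were low, with Epcam at 6.44 to 29.9 CPM, Sox9 at 3.82 to 9.11 CPM and Cldn4 at 0.0230 to 2.04 CPM. Of 12 T-cell markers, the defining Cd2, Cd5 and Cd8a were at 0 in every library, Cd3d, Cd3e and Cd3g did not exceed 0.0498 CPM, and the summed level, at most 6.53 CPM, was nearly all Lck. Of 10 fibroblast and endothelial markers Dcn and Lum were at 0 and the sum ran from 3.08 to 10.9 CPM. Of 9 myeloid and B-cell markers Adgre1 and Ms4a1 were among those at 0, and the sum of 69.4 to 274 CPM was nearly all Cd14. In such bulk RNA a change in the share of some cells and a change in RNA per cell cannot be told apart.

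The libraries numbered 2 of the 3 EV groups stood apart from those numbered 1 for most of these genes, and this has to be stated before any comparison. In each EV group the 16 glycolytic enzymes together took more of library 2 than of library 1. Their summed level was 12388 and 15495 CPM in the ATEV libraries, 11806 and 15802 in the NTEV libraries and 11537 and 13905 in the DNase-ATEV libraries. With PBS it was 11882 and 11646 CPM, so in this sum the EV libraries numbered 1 lay at or near the controls and those numbered 2 above them. The 2 parts differed in libraries 1 of ATEVs, NTEVs and DNase-ATEVs. The 9 upper enzymes summed to 3945, 3718 and 4041 CPM there, above the 3413 and 3006 with PBS. The 7 lower enzymes summed to 8442, 8088 and 7496 CPM, below the 8469 and 8639 with PBS. The 11 other hypoxia targets had a wider gap between libraries, at 619 and 562 CPM in controls, 681 and 1232 after ATEVs, 663 and 1349 after NTEVs, and 825 and 1296 after DNase-ATEVs. Here the sum in every EV library numbered 1 was also above both controls. Gene by gene this held in all EV libraries numbered 1 for Vegfa, Ndrg1 and P4ha2 and not for the others of the 11. Bnip3l, for one, was at 50.0 and 61.5 CPM in ATEV and NTEV library 1, against 78.2 and 61.8 CPM with PBS.

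Gene by gene, 31 of the 36 were higher in library 2 than in library 1 in all 3 EV groups, whereas 29.9% of all genes tested were. Slc2a3 alone went the other way in all 3, a direction that 32.1% of all genes took, and Hk2, Pfkfb3, Eno1 and Hif1a took neither direction throughout. The median log2 ratio of library 2 to library 1 over the 36 was 0.68 with ATEVs, 0.77 with NTEVs and 0.51 with DNase-ATEVs, and -0.03 with PBS, where 14 of the 36 were higher in library 2. Over all 15197 genes the median ratio lay between -0.01 and 0.02 in every group. At least 2-fold differences in all 3 EV groups were found for 7 of the 36 and for 1.86% of all genes. The labels do not say what the numbers stand for, such as a culture, a day or a lane, and what sets the libraries apart was not tested. Because the labels also do not say that the libraries came from separate cultures, a p-value here speaks to the spread among these libraries alone, which may be technical.

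**Figure D1:**
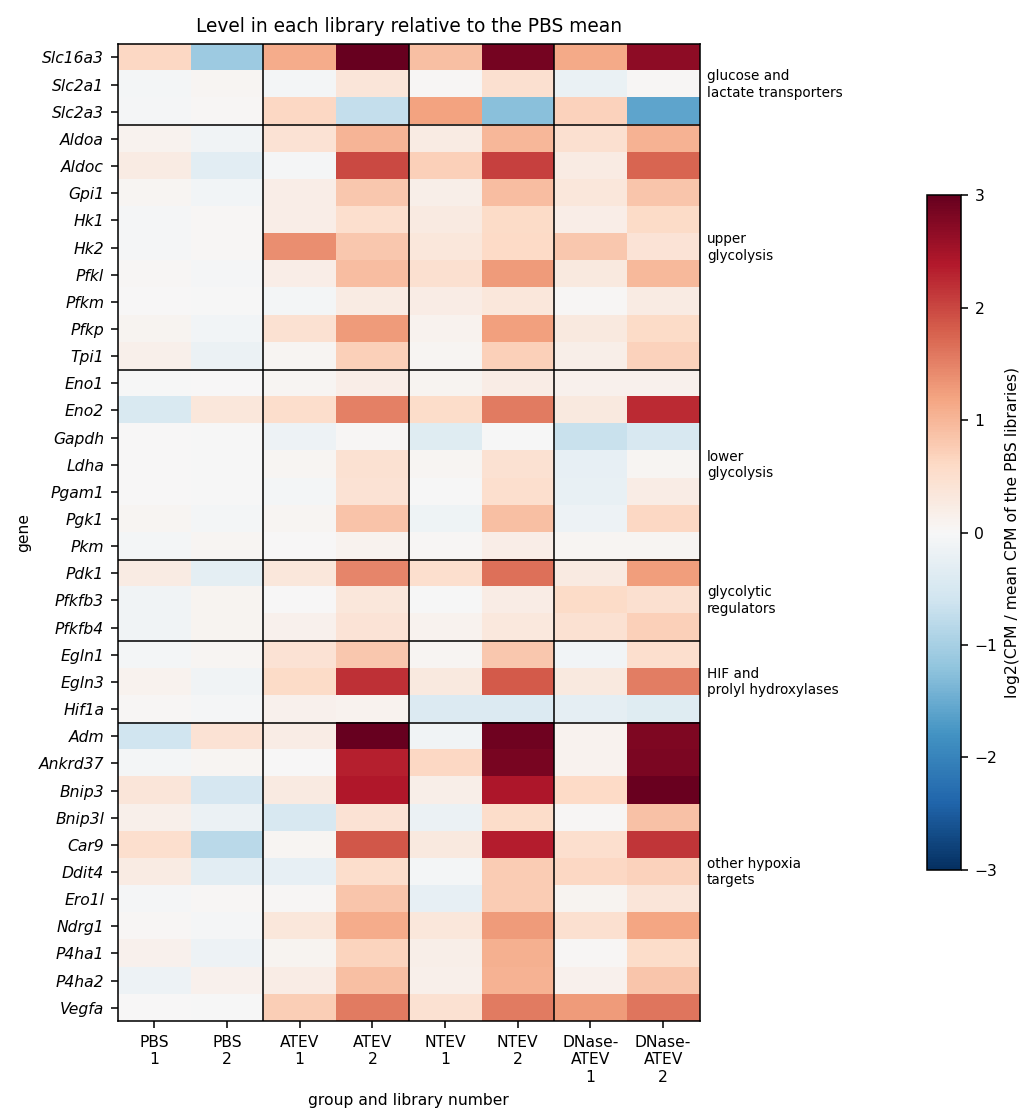
Level of each of the 36 genes (rows, grouped by role) in each of the 8 libraries (columns), as log2 of its CPM over the mean CPM of the PBS libraries; red is above and blue below that mean. The columns numbered 2 of the ATEV, NTEV and DNase-ATEV groups are the reddest, and Slc2a3 is blue in those columns.

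**Figure D2:**
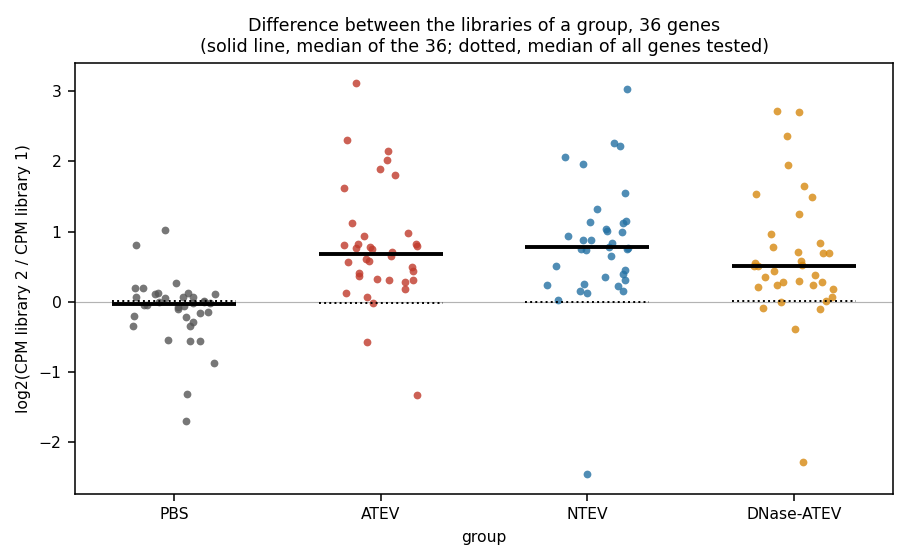
Log2 ratio of CPM in library 2 to library 1 for each of the 36 genes (points) in each group, with the median of the 36 (solid line) and of all genes tested (dotted line). The median of the 36 is -0.03 with PBS and 0.68, 0.77 and 0.51 with ATEVs, NTEVs and DNase-ATEVs, while the dotted lines lie near 0.

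Among the transporters, Slc16a3, which encodes the lactate exporter MCT4, had the widest range. It stood at 9.32 and 2.86 CPM for PBS, 13.1 and 48.5 for ATEV, 11.4 and 44.5 for NTEV, and 13.4 and 38.9 for DNase-ATEV. All 6 EV libraries were above both PBS libraries, the 3 numbered 2 by far the most, and the PBS libraries themselves differed 3.26-fold in the opposite direction. The log2 fold change against PBS was 2.32 ± 0.96 (SE) with ATEVs, 2.18 ± 0.96 with NTEVs and 2.09 ± 0.95 with DNase-ATEVs, with edgeR adjusted p-values of 0.217, 0.269 and 0.227, so none passed. All 3 comparisons passed by edgeR without the filter on low counts, with adjusted p-values of 0.00754 with ATEVs and 0.0258 with NTEVs. The lowest edgeR values with ATEVs and NTEVs, 0.000107 and 0.000721, came from a block with the PBS numbers exchanged. That block was chosen after seeing the data. Without ATEV library 2 the log2 fold change with ATEVs was 1.09, and without NTEV library 2 that with NTEVs was 0.89. Slc2a1, the basal glucose transporter GLUT1, stood at 176 and 189.7 CPM in the PBS libraries, 175 and 237 in the ATEV libraries, 189 and 257 in the NTEV libraries, and 158 and 187 in the DNase-ATEV libraries. Its groups overlapped with PBS in every comparison. The log2 fold changes of Slc2a1 against PBS were 0.17 ± 0.21, 0.28 ± 0.21 and -0.08 ± 0.21 (SE) with ATEVs, NTEVs and DNase-ATEVs. The edgeR adjusted p-values were 0.664, 0.447 and 0.823. Slc2a3 encodes GLUT3, a high-affinity glucose transporter typical of neurons, and was barely present, at 0.291 and 0.304 CPM in controls, 0.460 and 0.183 after ATEVs, 0.684 and 0.124 after NTEVs, and 0.484 and 0.0996 after DNase-ATEVs. Although it was higher in library 1 of each EV group, its group means all lay between 0.292 ± 0.272 CPM (SD, n = 2) and 0.404 ± 0.396 CPM (SD, n = 2). Per kilobase of exon, Slc2a1 was at 52.2 CPM per kb with PBS and Slc2a3 at 0.0411, so GLUT1 mRNA was by far the more abundant of the pair.

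Hk2 was the sole gene of the 36 to pass the edgeR test at an adjusted p of 0.05, and it did not follow the library pattern. It encodes hexokinase 2, the inducible enzyme that traps glucose in the cell by phosphorylation and is often raised in tumours. It stood at 121 and 127 CPM for PBS, 326 and 219 for ATEV, 157 and 186 for NTEV, and 217 and 165 for DNase-ATEV. Every EV library was above both PBS libraries, and library 1 was the higher of the pair with ATEVs and with DNase-ATEVs. Hk2 rose in ATEV-treated cells against PBS, by 1.14 ± 0.23 on the log2 scale (SE), a 2.20-fold difference with an edgeR adjusted p of 0.0365; both ATEV libraries were above both PBS libraries. This call was lost without ATEV library 1 (log2 fold change 0.86, adjusted p = 0.0861), without PBS library 1 (1.10, adjusted p = 0.203) and without PBS library 2 (1.17, adjusted p = 0.203), and held without ATEV library 2 (1.39, adjusted p = 0.0213). Over all alternatives its edgeR or DESeq2 adjusted p ran from 0.000152 to 0.203. Against PBS the difference was 0.63 ± 0.22 with DNase-ATEVs (adjusted p = 0.150). Between ATEVs and NTEVs it was 0.67 ± 0.22 (adjusted p = 0.389), with no overlap of the libraries. Hk1, the constitutive hexokinase, stood at 336 and 352 CPM in the PBS libraries, 395 and 490.4 in the ATEV libraries, 417 and 516 in the NTEV libraries, and 393 and 512 in the DNase-ATEV libraries. It was the more abundant isozyme with PBS, at 40.3 CPM per kb against 20.8 for Hk2, and with ATEVs the 2 were at 51.9 and 45.6.

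Aldoc showed the library pattern most strongly among the enzymes of upper glycolysis. Aldolase C splits fructose bisphosphate into triose phosphates and is the brain-type isozyme. It stood at 59.8 and 40.7 CPM in controls, 48.9 and 199 after ATEVs, 82.9 and 208 after NTEVs, and 60.1 and 168 after DNase-ATEVs. Library 1 of the ATEV and DNase-ATEV groups lay at the level of PBS, and library 2 lay 4.07-fold, 2.51-fold and 2.80-fold above library 1 with ATEVs, NTEVs and DNase-ATEVs. The log2 fold changes against PBS were 1.30 ± 0.76, 1.53 ± 0.77 and 1.18 ± 0.76 (SE), with edgeR adjusted p-values of 0.365, 0.310 and 0.361. Aldoa, the ubiquitous isozyme, was far more abundant at 327 CPM per kb with PBS against 15.4 for Aldoc. Its libraries stood at 1019 and 886 CPM for PBS, 1286 and 1918 for ATEV, 1134 and 1915 for NTEV, and 1338 and 1959.7 for DNase-ATEV, and all 6 EV libraries were above both controls.

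Phosphofructokinase, the committed step of glycolysis, is made from 3 genes, and they differed in how far they followed the pattern. Pfkp, the platelet-type subunit, stood at 58.7 and 52.5 CPM in the PBS libraries, 76.4 and 135 in the ATEV libraries, 59.3 and 130.1 in the NTEV libraries, and 68.3 and 82.8 in the DNase-ATEV libraries. Pfkl, the liver-type subunit, stood at 186 and 176 CPM in controls, 206 and 346 after ATEVs, 253 and 436 after NTEVs, and 220.4 and 355 after DNase-ATEVs. Pfkm, the muscle-type subunit, differed least, at 112 and 111 CPM for PBS, 108 and 133 for ATEV, 131 and 142 for NTEV, and 114 and 131 for DNase-ATEV. For Pfkp and Pfkl every EV library was above both PBS libraries. For Pfkm, library 1 with ATEVs lay just below both controls. Per kilobase with PBS the order of levels was Pfkm at 33.4, Pfkl at 27.1 and Pfkp at 4.15 CPM per kb; with NTEVs Pfkl was first at 51.6, against 40.8 for Pfkm and 7.07 for Pfkp.

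The remaining enzymes of upper glycolysis were Gpi1, which interconverts glucose and fructose phosphates, and Tpi1, which interconverts the triose phosphates. Gpi1 stood at 517 and 469 CPM in the PBS libraries, 564 and 861 in the ATEV libraries, 553 and 938 in the NTEV libraries, and 620.3 and 883 in the DNase-ATEV libraries. Tpi1 stood at 1004 and 793 CPM in controls, 935 and 1467 after ATEVs, 932 and 1469.5 after NTEVs, and 1009.9 and 1443 after DNase-ATEVs. Tpi1 was about as high in library 1 of the EV groups as with PBS, whereas for Gpi1 every EV library was above both controls. Both genes were higher in library 2 than in library 1 of each EV group. The ratio ran from 1.42-fold for Gpi1 with DNase-ATEVs to 1.70-fold for Gpi1 with NTEVs. Over the 9 genes of upper glycolysis the median log2 ratio of library 2 to library 1 was 0.61 with ATEVs, 0.76 with NTEVs and 0.51 with DNase-ATEVs, and -0.14 with PBS.

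Lower glycolysis held the most abundant transcripts of the 36, Gapdh and Pkm. Pkm, pyruvate kinase, stood at 2693 and 2942 CPM for PBS, 2862 and 3008 for ATEV, 2887 and 3209 for NTEV, and 2929 and 2954 for DNase-ATEV. Eno1, the ubiquitous enolase, stood at 1221 and 1228 CPM in the PBS libraries, 1279 and 1396 in the ATEV libraries, 1288 and 1428 in the NTEV libraries, and 1347 and 1345 in the DNase-ATEV libraries, and the ratio of library 2 to library 1 did not exceed 1.11 in any EV group for either gene. Ldha, which turns pyruvate into lactate, stood at 1385 and 1342 CPM in controls, 1417 and 1885 after ATEVs, 1418 and 1858 after NTEVs, and 1152 and 1418 after DNase-ATEVs. Its libraries numbered 2 were higher in every EV group, but with DNase-ATEVs library 1 lay below both PBS libraries. The log2 fold changes of Ldha against PBS were 0.28 ± 0.20, 0.26 ± 0.20 and -0.09 ± 0.20 (SE) with ATEVs, NTEVs and DNase-ATEVs. The edgeR adjusted p-values were 0.470, 0.466 and 0.814. Pgk1, an enzyme that yields ATP, stood at 230.1 and 214 CPM for PBS, 232 and 405 for ATEV, 203 and 418 for NTEV, and 198 and 341 for DNase-ATEV, and Pgam1, the mutase that follows it, stood at 128 and 128 CPM in the PBS libraries, 124 and 174 in the ATEV libraries, 128 and 182 in the NTEV libraries, and 109.8 and 149 in the DNase-ATEV libraries. For both, library 1 of every EV group was at or near the controls or below them, and library 2 was above. Eno2, the neuronal enolase, was close to the limit of detection and stood at 0.486 and 0.851 CPM in controls, 0.966 and 1.89 after ATEVs, 0.977 and 1.97 after NTEVs, and 0.823 and 3.16 after DNase-ATEVs. Per kilobase with PBS it was at 0.142 CPM per kb against 228 for Eno1.

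Gapdh, which is often used as a reference transcript, was lower in DNase-ATEV-treated cells than in any other group. It was singled out after its values were seen. It stood at 2811 and 2785 CPM for PBS, 2527 and 2858 for ATEV, 2163 and 2766 for NTEV, and 1759.7 and 1993 for DNase-ATEV. Both DNase-ATEV libraries lay below the other 6, and the log2 difference from PBS was -0.58 ± 0.16 (SE), with an edgeR adjusted p of 0.0996 and a DESeq2 adjusted p of 0.0387. Against ATEVs it was -0.52 ± 0.16 (edgeR adjusted p = 0.288) and against NTEVs -0.39 ± 0.16 (edgeR adjusted p = 0.488). Gapdh has many processed copies in the genome, and reads can be split among them. Of the 36 genes, 9 copies with a matching name were in the table and 6 passed the filter; 1 of them, Gapdh-ps14, stood at 0.486 and 0.334 CPM in the PBS libraries, 3.82 and 5.70 in the ATEV libraries, 4.67 and 4.16 in the NTEV libraries, and 3.58 and 3.51 in the DNase-ATEV libraries. It was higher in every EV library than in either control. Its log2 fold changes against PBS were 3.51, 3.40 and 3.08 with ATEVs, NTEVs and DNase-ATEVs, with edgeR adjusted p-values of 0.00247, 0.00986 and 0.0107. The part of Gapdh-ps14 in the Gapdh values was not tested.

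**Figure D3:**
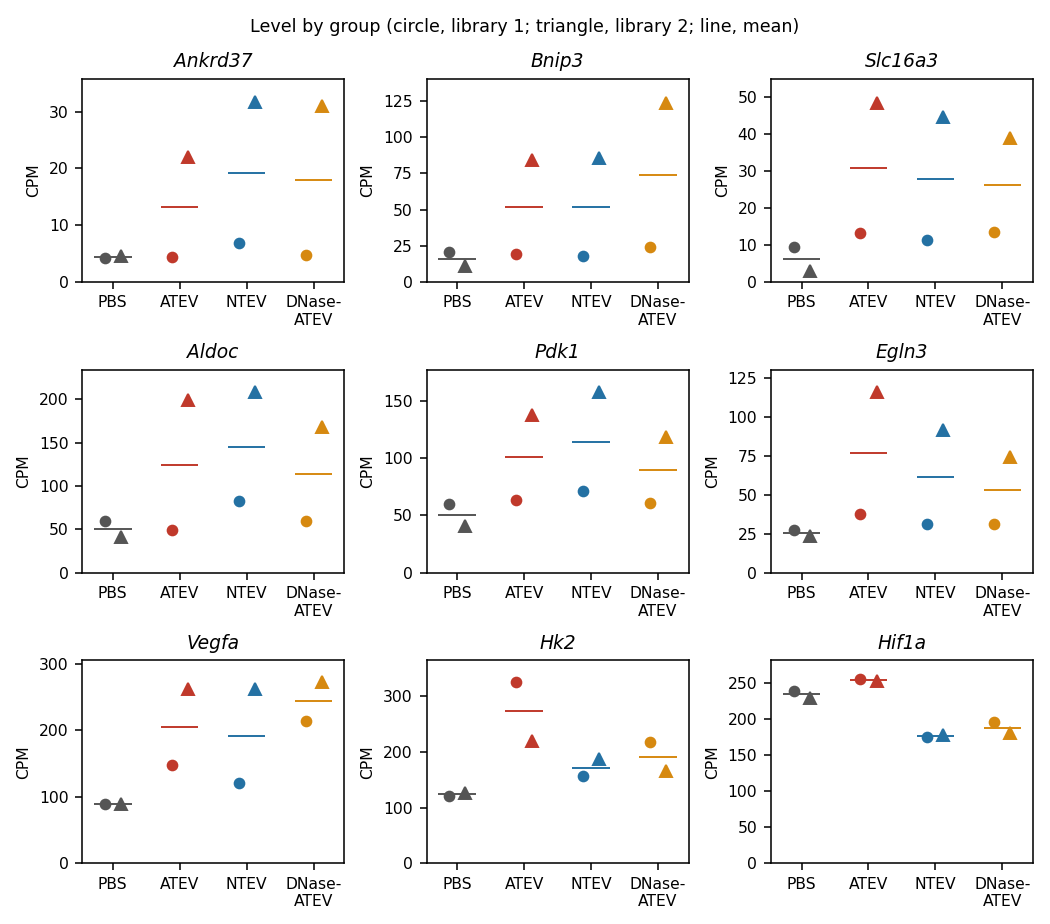
CPM of 9 of the genes by group, with library 1 as a circle, library 2 as a triangle and the mean of both as a line; each panel has its own axis from 0. Triangles lie far above circles in the EV groups for the first 6 genes, Vegfa is above PBS in every EV library, Hk2 has its highest value in ATEV library 1, and the Hif1a libraries of a group lie close together.

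The regulators of the pathway divided. Pdk1, pyruvate dehydrogenase kinase 1, shuts the entry of pyruvate into mitochondria and is a classical HIF target; it stood at 59.6 and 40.7 CPM in controls, 63.5 and 138 after ATEVs, 70.9 and 158 after NTEVs, and 60.7 and 119 after DNase-ATEVs. Library 2 was about the same multiple of library 1 in each EV group, 2.17-fold, 2.23-fold and 1.96-fold, and all 6 EV libraries exceeded both controls. The log2 fold change against PBS was 1.00 ± 0.53 with ATEVs (edgeR adjusted p = 0.320) and 1.19 ± 0.53 with NTEVs (edgeR adjusted p = 0.272). With DNase-ATEVs it was 0.84 ± 0.52 (edgeR adjusted p = 0.351). Pfkfb3 makes the allosteric activator of phosphofructokinase and did not follow the library numbers, at 36.2 and 41.3 CPM for PBS, 39.0 and 48.9 for ATEV, 38.2 and 45.0 for NTEV, and 57.5 and 53.7 for DNase-ATEV. Both DNase-ATEV libraries were above all the others. The log2 difference of DNase-ATEVs from PBS was 0.52 ± 0.17 (edgeR adjusted p = 0.123) and from NTEVs 0.42 ± 0.17 (edgeR adjusted p = 0.479). Pfkfb4, a related bifunctional enzyme, was low at 5.26 and 6.02 CPM in the PBS libraries, 6.14 and 7.44 in the ATEV libraries, 6.08 and 7.07 in the NTEV libraries, and 7.77 and 9.18 in the DNase-ATEV libraries, and its DNase-ATEV libraries were likewise the highest.

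Hif1a itself did not follow the library numbers. It stood at 239 and 229.7 CPM in controls, 256 and 254 after ATEVs, 176 and 178 after NTEVs, and 196 and 181 after DNase-ATEVs, so the libraries of a group were within 1.08-fold of each other while the groups were apart. ATEV libraries were the highest, PBS libraries next, DNase-ATEV libraries below them and NTEV libraries the lowest, with no overlap between any 2 groups. The log2 difference was 0.53 ± 0.11 between ATEVs and NTEVs, -0.41 ± 0.11 between NTEVs and PBS, -0.44 ± 0.11 between DNase-ATEVs and ATEVs, and -0.32 ± 0.11 between DNase-ATEVs and PBS. EdgeR gave adjusted p-values of 0.111, 0.138, 0.213 and 0.150 in that order, so none passed, whereas DESeq2 gave 0.000705, 0.0289, 0.0137 and 0.0860, of which the first 3 passed. Over all alternatives the edgeR or DESeq2 adjusted p ran from 0.000705 to 0.519, 0.0244 to 0.634, 0.0137 to 0.657 and 0.0463 to 0.529 in the same order. Of these, 0.0244 and 0.0463 came from a block with the PBS numbers exchanged, which was chosen after seeing the data. With an offset for GC content the differences of NTEVs and DNase-ATEVs from PBS shrank to -0.16 and -0.13. The edgeR adjusted p-values were then 0.497 and 0.522. These are levels of the transcript, and HIF-1 alpha protein was not measured.

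Both prolyl hydroxylase genes, whose products lead HIF-1 alpha to destruction and which are HIF targets in turn, were higher in library 2 of every EV group. Egln3 stood at 27.3 and 23.5 CPM for PBS, 37.7 and 116 for ATEV, 31.3 and 91.5 for NTEV, and 31.2 and 74.2 for DNase-ATEV. All 6 EV libraries were above the controls, the libraries numbered 2 by a wide margin. Its log2 fold change against PBS was 1.59 ± 0.69, 1.27 ± 0.68 and 1.05 ± 0.68 with ATEVs, NTEVs and DNase-ATEVs, with edgeR adjusted p-values of 0.236, 0.335 and 0.365. Egln1, the main oxygen sensor in most cells, stood at 77.1 and 83.9 CPM in the PBS libraries, 109 and 141 in the ATEV libraries, 84.3 and 141 in the NTEV libraries, and 76.7 and 115 in the DNase-ATEV libraries, with a library ratio of 1.29-fold to 1.68-fold in the EV groups.

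All 11 other hypoxia targets were higher in library 2 than in library 1 in every EV group, and 4 of them by at least 2-fold in all 3. Ankrd37, an ankyrin-repeat gene with the 4-core promoter shown above, stood at 4.23 and 4.56 CPM in controls, 4.46 and 22.0 after ATEVs, 6.80 and 31.7 after NTEVs, and 4.74 and 31.1 after DNase-ATEVs. Library 1 of the ATEV and DNase-ATEV groups was close to the controls, and library 2 was 4.94-fold, 4.66-fold and 6.55-fold higher than library 1. Bnip3, a mitochondrial receptor for mitophagy whose promoter held 5 cores, stood at 20.5 and 11.2 CPM for PBS, 19.0 and 84.2 for ATEV, 18.0 and 85.7 for NTEV, and 24.1 and 124 for DNase-ATEV. It too was near the control level in every library 1, and the PBS libraries differed 1.82-fold in the opposite direction. The log2 fold changes against PBS were 1.59 ± 1.10, 2.13 ± 1.11 and 2.03 ± 1.11 for Ankrd37, with edgeR adjusted p-values of 0.439, 0.325 and 0.297. For Bnip3 they were 1.70 ± 1.05, 1.71 ± 1.05 and 2.22 ± 1.06, with edgeR adjusted p-values of 0.386, 0.381 and 0.244. Both genes thus had large fold changes with errors to match, since the libraries of each EV group lay far apart.

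Car9 and Adm were low but followed the same order. Car9, carbonic anhydrase IX, regulates pH at the cell surface and is a widely used marker of hypoxia; it stood at 1.96 and 0.790 CPM in the PBS libraries, 1.43 and 5.00 in the ATEV libraries, 1.68 and 7.02 in the NTEV libraries, and 1.94 and 6.10 in the DNase-ATEV libraries. Its log2 fold changes against PBS were 1.20 ± 0.93, 1.63 ± 0.93 and 1.52 ± 0.93, with edgeR adjusted p-values of 0.492, 0.356 and 0.343. Adm encodes the vasodilator adrenomedullin and stood at 0.194 and 0.395 CPM in controls, 0.345 and 2.99 after ATEVs, 0.274 and 2.24 after NTEVs, and 0.315 and 2.04 after DNase-ATEVs. Every EV library numbered 1 lay between the 2 PBS libraries, and every EV library numbered 2 was at least 2.04 CPM.

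Vegfa, the main angiogenic growth factor among HIF targets, was above PBS in every EV library. It stood at 89.2 and 88.8 CPM for PBS, 148 and 263 for ATEV, 121 and 263 for NTEV, and 215 and 273 for DNase-ATEV. The PBS libraries were nearly equal, and the library gap was smallest with DNase-ATEVs, at 1.27-fold. The log2 fold change against PBS was 1.21 ± 0.39 with ATEVs, 1.11 ± 0.39 with NTEVs and 1.45 ± 0.40 with DNase-ATEVs. EdgeR gave adjusted p-values of 0.136, 0.204 and 0.0932, none of which passed, and DESeq2 gave 0.0279, 0.0739 and 0.00682, of which the first and the last passed. Over all alternatives the edgeR or DESeq2 adjusted p ran from 0.00358 to 0.482, 0.0186 to 0.867 and 0.00108 to 0.380 in that order.

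The library ratio of the remaining targets in the EV groups ran from 1.04-fold for Ddit4 with DNase-ATEVs to 1.99-fold for Ero1l with NTEVs. Ndrg1, a stress-responsive gene linked to differentiation, stood at 162 and 157 CPM in the PBS libraries, 201 and 343 in the ATEV libraries, 203 and 388 in the NTEV libraries, and 223 and 364 in the DNase-ATEV libraries, and every EV library exceeded both controls. P4ha1, a subunit of the collagen prolyl hydroxylase, reached 176 CPM in NTEV library 2, against 93.1 and 76.0 CPM with PBS. P4ha2, the subunit related to it, reached 70.6 CPM there, against 31.2 and 37.7 CPM with PBS. Bnip3l, the mitophagy receptor related to Bnip3, stood at 78.2 and 61.8 CPM in controls, 50.0 and 95.2 after ATEVs, 61.5 and 102 after NTEVs, and 72.3 and 129 after DNase-ATEVs, so its ATEV and NTEV libraries numbered 1 were below both controls. Ero1l, an oxidase of protein folding in the endoplasmic reticulum, stood at 85.5 and 88.4 CPM for PBS, 89.4 and 155 for ATEV, 73.8 and 147 for NTEV, and 91.7 and 111 for DNase-ATEV. Ddit4, an inhibitor of mTORC1 signalling that is raised by several stresses, stood at 52.6 and 35.6 CPM in the PBS libraries, 37.3 and 63.3 in the ATEV libraries, 42.4 and 75.4 in the NTEV libraries, and 67.8 and 70.7 in the DNase-ATEV libraries, and here both DNase-ATEV libraries were high and close to each other.

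In the comparison of ATEVs with PBS, 1 of the 36 genes, Hk2, passed an edgeR adjusted p of 0.05, where 5.19% of all 15197 genes passed (535 higher and 253 lower). The median log2 fold change of the 36 was 0.53 against -0.02 for all genes, and 35 of the 36 were above 0, against 48.3% of all genes. By unadjusted p under 0.05 there were 5 genes, all higher (Hk2, Pfkp, Aldoa, Slc16a3 and Vegfa), with a background of 21.9%, and DESeq2 called 2 genes higher, Hk2 and Vegfa, with a background of 10.8% in either direction and 6.76% higher. Both ATEV libraries were above both PBS libraries for 20 of the 36, against 25.2% of all genes. The median stood on the libraries numbered 2: it was 0.86 without ATEV library 1 and 0.12 without ATEV library 2.

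With NTEVs against PBS none of the 36 passed by edgeR, where 1.11% of all genes did (107 higher and 62 lower). The median log2 fold change was 0.49 for the 36 and near 0 for all genes. Of the 36, 34 were above 0, against 49.8% of all genes. An unadjusted p under 0.05 was reached by 2 genes that were higher, Pfkl and Vegfa, and 1, Hif1a, that was lower, with a background of 19.1%. DESeq2 called 1 gene, Hif1a, lower, with a background of 6.47%. Both NTEV libraries were above both controls for 21 of the 36, against 28.6% of all genes. The median was 0.90 without NTEV library 1 and 0.16 without NTEV library 2.

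With DNase-ATEVs against PBS none of the 36 passed by edgeR, where 3.01% of all genes did (328 higher and 130 lower). The median log2 fold change was 0.52 for the 36 and near 0 for all genes. Of the 36, 31 were above 0, against 49.9% of all genes. By unadjusted p under 0.05, 5 genes were higher (Hk2, Pfkfb3, Pfkfb4, Aldoa and Vegfa) and 2 were lower (Gapdh and Hif1a), with a background of 24.7%. DESeq2 called Vegfa higher and Gapdh lower, with a background of 11.6% in either direction and 7.13% higher. Both DNase-ATEV libraries were above both controls for 22 of the 36, against 29.7% of all genes. The median was 0.72 without DNase-ATEV library 1 and 0.23 without DNase-ATEV library 2. These 3 comparisons share the PBS libraries and so are not independent. All 6 EV libraries were above both PBS libraries for 14 of the 36 genes and for 13.9% of all genes. Other settings called other genes of the 36. Without the filter on low counts, edgeR called Slc16a3 and Vegfa higher than PBS in all 3 EV groups, Egln3 with ATEVs, Pdk1 with NTEVs and Bnip3 with DNase-ATEVs, among others. A block with the PBS numbers exchanged, which was chosen after seeing the data, called Aldoc, Slc16a3, Pdk1, Vegfa, Car9 and Bnip3 higher in all 3 and Egln3 with ATEVs and NTEVs. The fits that left out a library called none of these genes.

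**Figure D4:**
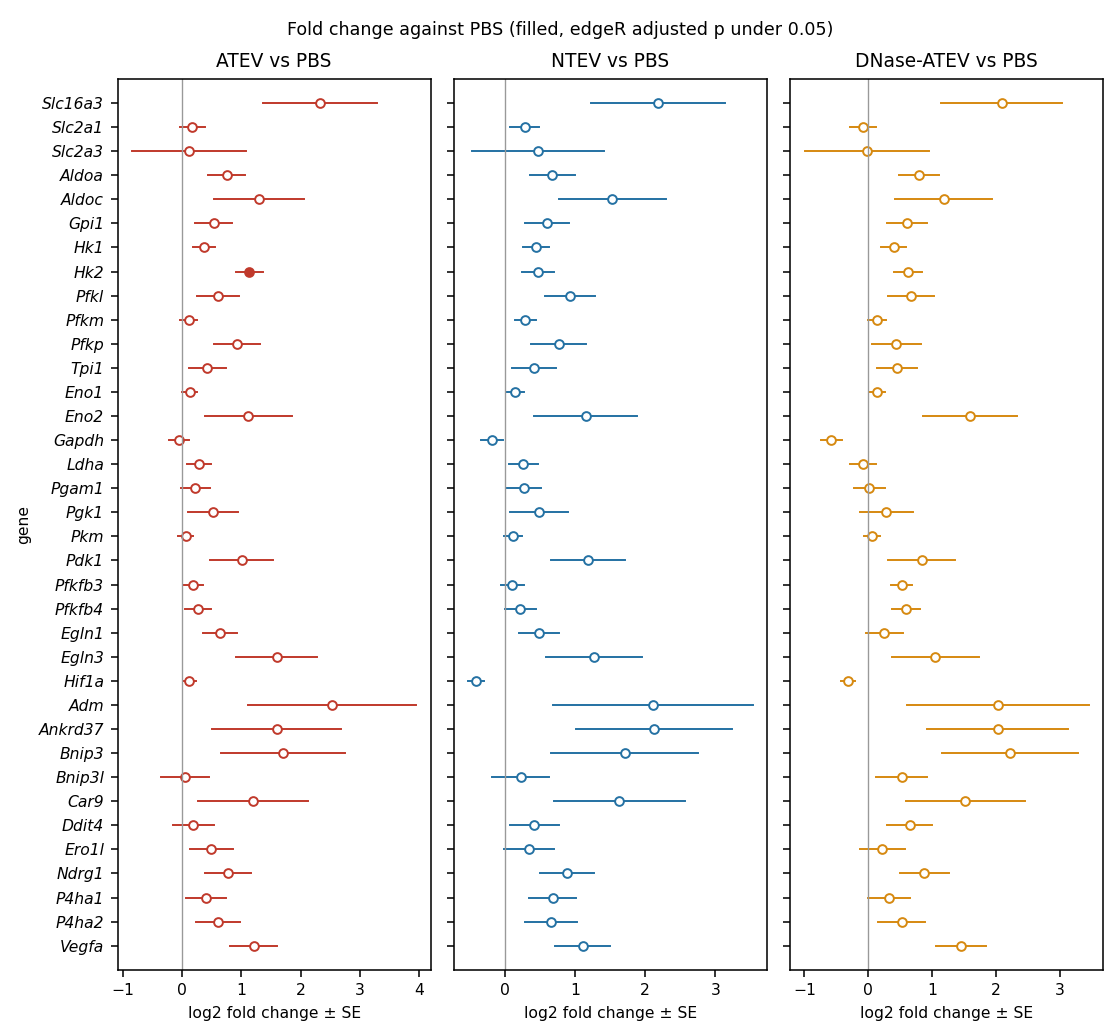
Log2 fold change against PBS with its standard error for each of the 36 genes, by EV group, from the edgeR fit over all 8 libraries; filled points passed an adjusted p of 0.05. Hk2 with ATEVs is the sole filled point, and the genes with the largest fold changes, such as Adm, Slc16a3 and Bnip3, have wide error bars.

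Between the EV groups the medians of the 36 genes were close to 0. Over all genes tested, 51.6, 51.7 and 51.6% were above 0 in the comparisons that follow, in their order. For ATEVs against NTEVs the median log2 difference was -0.03 and 16 of 36 were above 0; none passed by edgeR, where 1.19% of all genes did, and Hk2 and Hif1a were higher at an unadjusted p under 0.05, with a background of 8.23%. DESeq2 called 1 of the 36, Hif1a, with a background of 3.14%. For DNase-ATEVs against ATEVs the median was -0.04 and 18 of 36 were above 0; none passed by edgeR, where 0.665% of all genes did, and Gapdh and Hif1a were lower at an unadjusted p under 0.05, with a background of 11.3%. DESeq2 called Hif1a lower, with a background of 2.72%. For DNase-ATEVs against NTEVs the median was -0.10 and 12 of 36 were above 0. None passed by edgeR, where 0.0526% of all genes did, Pfkfb3 was higher and Gapdh lower by unadjusted p (background 10.0%), and DESeq2 called none, with a background of 1.30%. The sign of each of these medians depended on which library was left out. It was 0.24 without ATEV library 1 and -0.37 without ATEV library 2 for ATEVs against NTEVs, 0.24 without DNase-ATEV library 1 and -0.40 without DNase-ATEV library 2 for DNase-ATEVs against ATEVs, and -0.46 without NTEV library 1 and 0.40 without NTEV library 2 for DNase-ATEVs against NTEVs. A fit to the EV libraries alone with the library number as a block, chosen after seeing the data, changed the calls. It called Hif1a for ATEVs against NTEVs, where 7.15% of all genes were called. For DNase-ATEVs against ATEVs it called 6 of the 36, Bnip3 and Bnip3l higher and Gapdh, Egln1, Egln3 and Hif1a lower, with a background of 11.4%. For DNase-ATEVs against NTEVs it called Bnip3 higher, with a background of 5.35%. The same fit without the block called none of the 36.

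Comparing libraries of like number gave the same split. Setting each EV library 1 against PBS library 1, the median log2 ratio of the 36 was 0.09 with ATEVs, 0.11 with NTEVs and 0.18 with DNase-ATEVs, with 25, 26 and 26 genes above 0. Setting each library 2 against PBS library 2, it was 0.82, 0.94 and 0.70, with 35, 33 and 32 above 0. Over all genes tested these medians lay between -0.04 and 0.01. Each such ratio compares 2 single libraries, the numbers are not known to pair them, and no test was made.

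Other genes of the same pathways were examined as lists. Of 42 further hypoxia targets 38 passed the filter on low counts, and 28 of these were higher in library 2 in all 3 EV groups, against the 29.9% of all genes given above, with 3 lower in all 3. Their median log2 ratio of library 2 to library 1 was 0.57 with ATEVs, 0.48 with NTEVs and 0.48 with DNase-ATEVs, and 0.02 with PBS. Fam162a, a mitochondrial protein named as a HIF target, is an example, chosen after its values were seen, at 103 and 90.2 CPM in controls, 124 and 255 after ATEVs, 119 and 245 after NTEVs, and 134 and 275 after DNase-ATEVs. By edgeR only Tmem45a was called in this list. DESeq2 called 4 genes higher and 1 lower with ATEVs against PBS, where it called 6.76% of all genes higher and 4.01% lower. With DNase-ATEVs against PBS it called 1 higher and 2 lower, with backgrounds of 7.13% and 4.47%. It also called 1 higher for ATEVs against NTEVs and 1 lower for DNase-ATEVs against ATEVs, with backgrounds of 3.14% and 2.72% in either direction. Tmem45a rose in ATEV-treated cells against PBS by 1.84 ± 0.28 on the log2 scale (edgeR adjusted p = 0.0153) and against NTEVs by 1.79 ± 0.28 (adjusted p = 0.0344). Its libraries stood at 4.06 and 2.46 CPM for PBS, 11.9 and 11.5 for ATEV, 3.34 and 3.43 for NTEV, and 4.19 and 5.28 for DNase-ATEV, with no gap between libraries 1 and 2 of the ATEV group.

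Genes of glucose metabolism outside the 36 were mixed. Of 28 listed, 19 were tested, 7 were higher in library 2 in all 3 EV groups and 3 were lower. Bsg, the chaperone that carries lactate transporters to the cell surface, was among the higher ones at 559 and 531 CPM in the PBS libraries, 589.5 and 1112 in the ATEV libraries, 612 and 1405 in the NTEV libraries, and 621 and 1159 in the DNase-ATEV libraries. Slc16a1, the lactate transporter MCT1, was not, at 415 and 432 CPM in controls, 362 and 381 after ATEVs, 355 and 339 after NTEVs, and 299.8 and 298 after DNase-ATEVs. None of the 19 was called in any comparison; at an unadjusted p under 0.05, 1, 0 and 1 were higher than PBS with ATEVs, NTEVs and DNase-ATEVs and 2, 2 and 3 were lower, and DESeq2 called 1, 0 and 3 lower. Over all genes the shares lower than PBS were 10.3, 8.85 and 10.9% by unadjusted p and 4.01, 2.65 and 4.47% by DESeq2, and the shares higher by unadjusted p were 11.6, 10.3 and 13.7%. Between the EV groups 0, 2 and 1 were lower at an unadjusted p under 0.05 for ATEVs against NTEVs, DNase-ATEVs against ATEVs and DNase-ATEVs against NTEVs, and DESeq2 called 0, 1 and 0. Bsg and Slc16a1 were also chosen after their values were seen, as were Epas1, Pdk2, Cs, Pdha1, Psat1 and Phgdh below.

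Of 16 further genes of the HIF pathway, which were all tested, 5 were higher in library 2 and 5 in library 1 in all 3 EV groups. At an edgeR unadjusted p under 0.05, 7, 4 and 5 were higher than PBS with ATEVs, NTEVs and DNase-ATEVs and 2, 4 and 1 lower. Over all genes, 11.6, 10.3 and 13.7% were higher and 10.3, 8.85 and 10.9% lower. DESeq2 called 2, 2 and 3 higher and 0, 1 and 0 lower, against 6.76, 3.82 and 7.13% of all genes higher and 4.01, 2.65 and 4.47% lower. Arnt2, a partner subunit for HIF alpha proteins, rose by 0.75 ± 0.16 with ATEVs against PBS (edgeR adjusted p = 0.0447) and by 0.84 ± 0.16 with DNase-ATEVs (adjusted p = 0.0451). It stood at 20.8 and 16.8 CPM for PBS, 29.7 and 33.8 for ATEV, 26.1 and 26.2 for NTEV, and 32.5 and 35.2 for DNase-ATEV. Ep300, a coactivator of HIF, rose by 0.67 ± 0.11 with NTEVs (adjusted p = 0.0426) from 117 and 119 CPM with PBS to 185 and 190.3 CPM. Epas1, which encodes HIF-2 alpha, was not called and followed the library numbers, at 24.4 and 18.6 CPM in the PBS libraries, 32.9 and 74.6 in the ATEV libraries, 32.4 and 58.9 in the NTEV libraries, and 31.4 and 76.9 in the DNase-ATEV libraries, unlike Hif1a.

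Mitochondrial and branching pathways leaned the opposite way between the libraries. Of the 11 genes of the pyruvate dehydrogenase complex and its regulators, 8 were lower and 1, the kinase Pdk2, higher in library 2 in all 3 EV groups. Of 16 genes of the tricarboxylic acid (TCA) cycle 11 were lower and 2 higher, and of 8 genes of the pentose phosphate pathway 5 were lower and 1 higher, where 32.1% of all genes were lower. Citrate synthase, Cs, which starts the TCA cycle, stood at 513 and 585 CPM in controls, 557 and 421 after ATEVs, 500.2 and 379 after NTEVs, and 455 and 329 after DNase-ATEVs. Pdha1, the catalytic subunit of pyruvate dehydrogenase, stood at 293 and 318 CPM for PBS, 247 and 246 for ATEV, 251 and 236 for NTEV, and 219 and 183 for DNase-ATEV. The median log2 ratio of library 2 to library 1 for the TCA cycle was -0.14 with ATEVs, -0.17 with NTEVs and -0.21 with DNase-ATEVs, and 0.07 with PBS. Genes of these lists that edgeR called were Sdhd, a subunit of succinate dehydrogenase, with ATEVs against PBS (-0.56 ± 0.12, adjusted p = 0.0447), and H6pd, the pentose phosphate dehydrogenase of the endoplasmic reticulum, which rose by 1.07 ± 0.18 (adjusted p = 0.0223) in the same comparison. Against PBS the median log2 fold change of the 16 TCA genes was -0.20, -0.23 and -0.39 with ATEVs, NTEVs and DNase-ATEVs, and 5, 3 and 8 of them were lower at an unadjusted p under 0.05 while none was higher, against 10.3, 8.85 and 10.9% of all genes that were lower by that p. DESeq2 called 1, 1 and 3 TCA genes lower, where it called 4.01, 2.65 and 4.47% of all genes lower. Of the pentose phosphate genes it called 1, 0 and 2 higher and 0, 1 and 1 lower, where it called 6.76, 3.82 and 7.13% of all genes higher. No gene of the pyruvate dehydrogenase list was called by edgeR against PBS; at an unadjusted p under 0.05, 1, 3 and 4 of the 11 were lower and 1, 0 and 0 higher, and DESeq2 called 0, 1 and 3 lower, to be read against the same shares.

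Genes of the integrated stress response, which is set off by amino acid shortage and unfolded protein, also differed between libraries. Of 13 tested, 8 were lower and 4 higher in library 2 in all 3 EV groups. Psat1 and Phgdh, enzymes of serine synthesis that branch from a glycolytic intermediate, were among the lower ones, at 541 and 518 CPM in the PBS libraries, 596 and 292 in the ATEV libraries, 439 and 225 in the NTEV libraries, and 668 and 271 in the DNase-ATEV libraries for Psat1. DESeq2 called 1, 0 and 3 of the list higher than PBS with ATEVs, NTEVs and DNase-ATEVs, against 6.76, 3.82 and 7.13% of all genes. By edgeR the gene called in this list was Cebpb, a transcription factor of stress and inflammation. It stood at 19.0 and 21.8 CPM in controls, 58.4 and 65.2 after ATEVs, 26.0 and 43.2 after NTEVs, and 46.1 and 49.8 after DNase-ATEVs, with log2 fold changes against PBS of 1.60 ± 0.24 with ATEVs (edgeR adjusted p = 0.0143) and 1.24 ± 0.24 with DNase-ATEVs (adjusted p = 0.0470). Of the marker lists, Cd14 was called with DNase-ATEVs against PBS, at 1.48 ± 0.24 (adjusted p = 0.0284), and it stood at 270.0 and 195 CPM there against 99.7 and 67.1 CPM with PBS. The part of Cd14-expressing cells or of a change within the cancer cells in the values of the 36 genes was not tested; of the other myeloid markers, Adgre1, Itgam and Lyz2 were at or below 0.199 CPM in every library and Csf1r at or below 0.437 CPM. Cd68, which many cells express in lysosomes, stood at 3.17 and 1.88 CPM for PBS, 2.83 and 3.03 for ATEV, 2.52 and 3.63 for NTEV, and 3.46 and 5.50 for DNase-ATEV, highest in DNase-ATEV library 2.

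These calls outside the 36 rested on few libraries. Each of Arnt2, Ep300, Sdhd and Cd14 was no longer called by edgeR whichever of the 4 libraries of its comparison was left out, with adjusted p-values of 0.0789 to 0.297 over the 4 genes. For Cebpb with DNase-ATEVs and Tmem45a between ATEVs and NTEVs the same held. H6pd and Cebpb with ATEVs against PBS stayed called without ATEV library 1 alone, with edgeR adjusted p-values of 0.0266 and 0.0387, and Tmem45a stayed called without PBS library 1 alone (adjusted p = 0.0432).

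**Figure D5:**
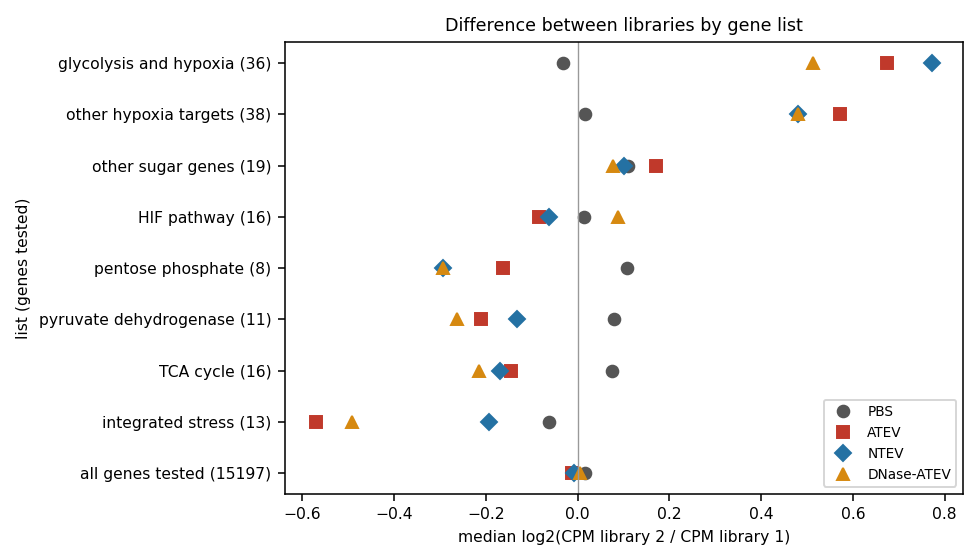
Median log2 ratio of CPM in library 2 to library 1 for each gene list (rows, with the number of genes tested) in each group. The 36 genes and the other hypoxia targets lie to the right of 0 in the 3 EV groups, the pyruvate dehydrogenase, TCA cycle, pentose phosphate and stress lists lie to the left, and PBS lies between -0.06 and 0.11 for the lists shown.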

How the data were processed

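RNA was sequenced from 8 libraries of 1 cultured clone, 2 per group; group and library number came from the titles. TruSeq stranded mRNA libraries were made from total RNA, per the labels' protocols. The authors deposited whole-number gene counts for 42687 Ensembl identifiers, and these counts were used unchanged. Tools named in the submitters' processing notes, without a role, are Cufflinks 2.1.1, TopHat, TopHat2 2.0.11 and bcl2fastq 2.19, and the build named is mm9. How reads were counted, with which strand setting and against which annotation, is not given in the sources used here, so genes with overlapping, antisense or near-identical copies are uncertain. Symbols came from GENCODE M21, which matched 42250 identifiers and also gave exon lengths. Promoter windows came from RefSeq on GRCm38.p6, another build than mm9, and were used for sequence only.

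The analysis ran in R 4.3.3 with edgeR 4.0.16 (limma 3.58.1). The expression filter by group kept 15197 genes, which were TMM-scaled. A quasi-likelihood fit with a mean per group over all 8 libraries (4 residual degrees of freedom) gave 6 comparisons, two-sided p-values adjusted by Benjamini-Hochberg over all genes tested within a comparison, and a threshold of 0.05. The common biological coefficient of variation was 0.226. Errors of levels are SDs over 2 libraries. No 2 libraries were copies, since the chi-square per gene within a group was 39.3 to 145. The fit was also run on simulated counts. These held no difference by library number, so that run does not speak to the pattern between libraries.

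The members, lists and tests were chosen with earlier results of these data known. The rule for named members takes those called in any comparison and the 8 others with the largest fold changes among those whose mean log2 CPM reached 1. It also takes Slc2a1, Hk2, Pfkfb3, Ldha, Pdk1, Hif1a, Vegfa and Car9. Statistics of the named members are given in whole or in part, and per-library values of other members were added. Some items of the genotype and the marker lists are not reported here. Alternatives were DESeq2 1.42.0, its size factors in edgeR, no filter on low counts, protein-coding genes only, an offset for GC content, a replicate block, and leaving out each library. A block with the PBS numbers exchanged, chosen after seeing the data, is also part of the ranges and tallies over all alternatives.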

Additional observations from a re-analysis of the deposited data

How the results depend on the processing

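Counts of called genes moved with the settings, and the fold changes of the 36 moved with the library left out. The edgeR counts were 788, 169 and 458 genes for ATEVs, NTEVs and DNase-ATEVs against PBS, and 181, 101 and 8 for ATEVs against NTEVs, DNase-ATEVs against ATEVs and DNase-ATEVs against NTEVs; in this order of the 6 comparisons, the 36 genes gave 1, 0, 0, 0, 0 and 0 calls. DESeq2 called 1637, 983, 1764, 477, 413 and 198 genes and 2, 1, 2, 1, 1 and 0 of the 36. Without a filter on low counts edgeR called 1454, 773, 1520, 459, 343 and 180 genes, and 6, 4 and 6 of the 36 against PBS. With protein-coding genes only it called 371, 1 and 35 genes against PBS, and with the GC offset 303 for DNase-ATEVs against PBS. The cause of these moves was not tested.

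Leaving out 1 library gave 123 to 399 genes for ATEVs against PBS (0 to 1 of the 36), 5 to 27 for NTEVs against PBS, 11 to 62 for DNase-ATEVs against PBS, 62 to 158 for ATEVs against NTEVs, 26 to 98 for DNase-ATEVs against ATEVs and 1 to 5 for DNase-ATEVs against NTEVs. The lone library left in a group is then assumed to vary like the other groups. The median log2 fold change of the 36 ran from 0.12 to 0.86, 0.16 to 0.90 and 0.23 to 0.72 against PBS over all alternatives. A tally over all alternatives covered the named members other than Slc2a1 and Ldha, most of them in some of the comparisons only. In it, 342 values kept direction and side of the threshold, and 42 passed where the reported fit did not. Among the 42 are passes of the crossed replicate block, in which the PBS numbers were exchanged after seeing the data. The losses were those of Hk2 with ATEVs given above. The 1 reversal was Aldoc with ATEVs against PBS, at -0.042 without ATEV library 2 and 2.02 without ATEV library 1.

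Library numbers were checked for pairing through the correlation, across genes, of deviations from the group means. It was -0.18, -0.24 and -0.14 between PBS and ATEVs, NTEVs and DNase-ATEVs, and 0.53, 0.55 and 0.49 among the EV groups. PBS thus did not share the difference between libraries that the EV groups had in common. What the numbers stand for cannot be told from these correlations. With the replicate block, 330 and 1052 genes were called for NTEVs and DNase-ATEVs against PBS and 24 for DNase-ATEVs against NTEVs, and 2 and 1 of the 36 for ATEVs and DNase-ATEVs against PBS; with the block and the GC offset, 2 of the 36 for DNase-ATEVs against PBS and 21 genes for DNase-ATEVs against NTEVs. The fits that follow were chosen after seeing the data. Some used EV libraries only. Without the replicate block they called 110, 53 and 3 genes in the 3 comparisons among EV groups, and with the replicate block 1087, 1732 and 813, of the 36 genes 1, 6 and 1. A crossed replicate block, with the PBS numbers exchanged, called 3298, 3567 and 4378 genes against PBS and 11, 13 and 18 of the 36.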
